A study of Mus musculus with 19 samples.

Results

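Among 16 mouse medulloblastomas taken from animals treated with the Smoothened antagonist NVP-LDE225, the 5 tumours with the highest array signal for Ifit1 were compared with the 5 tumours with the lowest; the members were chosen by that measured signal alone. Ifit1 is an interferon-induced protein that binds foreign RNA, and it is among the genes that interferons induce most strongly. The 10 tumours compared were members of a series of 19, of which 6 more treated tumours lay between the groups and 3 came from vehicle-treated mice. Because Ifit1 chose the groups, its own values are a description with no test, and a difference in any other gene says only that the gene went along with Ifit1 among treated tumours.

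All tumours are given the genotype Ptch+/-p53-/-, which names 1 intact copy of Ptch, the receptor that restrains Hedgehog signalling, and no p53. Whether the tumour cells kept that copy is not known here. Cells dissociated from such tumours were grafted under the skin of Harlan nu/nu mice (right flank), which are athymic and lack mature T cells but keep innate immune cells, and dosing began about 10 days later. Vehicle tumours are labelled sensitive. Tumours given 40 mg/kg (8 arrays) or 160 mg/kg (8 arrays) are all labelled resistant, so treatment and resistance are a single condition, and neither exposure time nor mouse age is known here. In the source name field, 160 mg/kg tumours 6 and 7, both in the low group, are resistant, and the remaining treated tumours are called treated. Nothing in the labels says that arrays are separate animals, so the p-values rest on the spread among these arrays, which may be partly technical. The granule neuron lineage factor Zic1 had a mean signal of 4813 ± 314 (SD, n = 5) in the high group and 5516 ± 543 (SD, n = 5) in the low group. In vehicle tumours it was 3448 ± 208 (SD, n = 3). A gene of that lineage was thus bright in each of these groups, but this 1 gene does not establish the tumour type.

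Type I interferons bind the receptor Ifnar1/Ifnar2, whose kinases Jak1 and Tyk2 set off the assembly of the factor ISGF3. This factor contains Stat2 and Irf9 and binds interferon-stimulated response elements in the promoters of effector genes. The products of these genes sense foreign RNA, block its translation, cut or conjugate proteins and load peptides onto MHC class I molecules. Interferon gamma uses a separate receptor, acts in part through Irf1, and drives the immunoproteasome, guanylate-binding proteins and MHC genes strongly.

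The element that ISGF3 reads is visible in promoter sequence. RefSeq promoters (GRCm38.p6) were searched over the 250 bases before each start for GAAA, any 2 bases and GAAA again, or the reverse complement of this (TTTC, any 2 bases, TTTC), and matches are in capitals. Stretches are shown for the ranking gene Ifit1 (chr19:34640765-34640833, plus strand), for Ddx60, the only called gene with a match (chr8:61928014-61928086, plus strand), and for Rsad2 (chr12:26456543-26456592, minus strand), Gbp7 (chr3:142530263-142530312, plus strand) and Irgm1 (chr11:48871421-48871470, minus strand), whose signals were higher without passing the test. Stat2 (chr10:128270256-128270305, plus strand) has a match and had nearly equal signal in both groups. All are written 5′ to 3′ on the strand of the gene.
Ifit1: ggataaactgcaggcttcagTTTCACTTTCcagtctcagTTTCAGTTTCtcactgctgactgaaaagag
Ddx60: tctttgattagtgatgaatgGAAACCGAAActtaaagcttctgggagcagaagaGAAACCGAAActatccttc
Rsad2: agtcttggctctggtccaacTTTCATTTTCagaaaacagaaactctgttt
Gbp7: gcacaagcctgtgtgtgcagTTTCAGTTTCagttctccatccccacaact
Irgm1: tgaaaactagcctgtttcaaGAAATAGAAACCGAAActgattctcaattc
Stat2: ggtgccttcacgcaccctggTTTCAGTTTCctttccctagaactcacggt

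Ifit1 and Ddx60 each hold 2 matches, and in Irgm1 a pair of matches overlaps. Of 84 measured interferon list genes with a promoter in the table, 23 (27.4%) held a match, against 328 of 10818 genes tested (3.03%) and 936 of all 27025 promoters (3.46%). Among genes higher with Ifit1 at an adjusted p under 0.1, 5 of 27 held one (18.5%). Of 15 genes called at any probe set, Ripor2 and Zbp1 among them, 14 had a promoter in the table and 1 held a match. The 23 interferon genes with a match had a median log2 difference of 0.85 and the 61 without had 0.67. A match is a description of these letters and says nothing of binding, and a promoter without one can hold the element elsewhere or in another spelling.

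Ifit1 signal covered a wide range among treated tumours. The high group held 4 tumours given 40 mg/kg, numbers 6, 8, 4 and 3, at 376.5, 338.3, 106.3 and 96.0, and number 1 of those given 160 mg/kg, at 177.0. The low group held 4 tumours given 160 mg/kg, numbers 8, 2, 7 and 6, at 50.1, 48.1, 32.2 and 18.8, and number 5 of those given 40 mg/kg, at 43.7. The group means were 219 ± 131 (SD, n = 5) and 38.6 ± 13.1 (SD, n = 5), so the high group contains 2 tumours far above the rest and 2 near the boundary. Just outside the groups lay 40 mg/kg tumour 2 at 84.9 and 160 mg/kg tumour 4 at 65.8, and the 6 tumours between ran from 65.8 to 84.9. The vehicle tumours, at 482.6, 759.9 and 580.2, exceeded all 16 treated tumours.

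**Figure D1:**
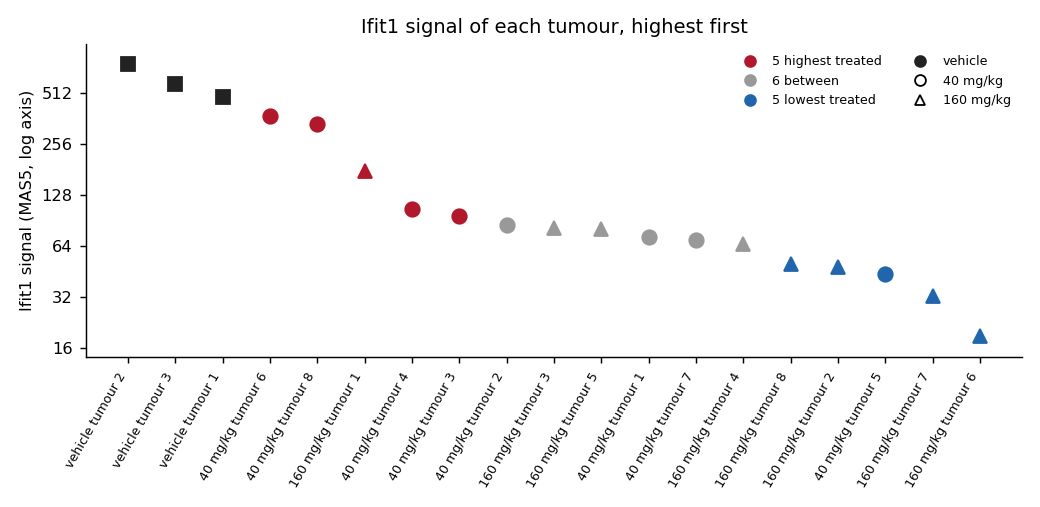
Ifit1 signal (MAS5 units, log axis) of each of the 19 tumours, ordered from highest to lowest, with colour for the group and shape for the dose. The 5 highest treated tumours run from 376.5 down to 96.0 and the 5 lowest from 50.1 down to 18.8, all below the 3 vehicle tumours.

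The dose make-up was thus 4 to 1 in favour of 40 mg/kg in the high group and 4 to 1 in favour of 160 mg/kg in the low group. This imbalance did not pass Fisher's exact test (two-sided p = 0.206), but 5 tumours a group give that test little reach, and dose and Ifit1 level are therefore partly mixed in every difference given here. Ranking after quantile normalization gave the same 5 tumours in each group and the same dose counts. The median signal per array was 38.2 ± 0.604 (SD, n = 5) in the high group and 38.4 ± 2.78 (SD, n = 5) in the low group (exact permutation test over 252 choices, two-sided, p = 0.889, where the smallest possible is 0.00794). The mean correlation of an array with the other arrays was higher in the high group, 0.947 against 0.940 (exact permutation p = 0.0238), and the part of this in the results was not tested.

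Few genes passed the test, and 7 of the 13 that did belong to the interferon lists. With limma's moderated test over 31142 probe sets, 20 were called at an adjusted p under 0.05 (0.0642% of those tested), 19 higher in the high group (0.061%) and 1 lower (0.00321%); 2311 had an unadjusted p under 0.05. At 1 probe set per gene, 12 of 13453 genes were called higher (0.0892%) and 1 lower (0.00743%), 13 in all (0.0966%). The genes called higher were Psmb8, Ddx60, Samd9l, Herc6, Zc3hav1, Krt12, Rnf213, Dtx3l, Parp12, Nmi, Irf1 and Gm20559, and the gene called lower was Igsf21. The count rests on the shared estimate of spread from all 19 arrays: a fit of the 10 compared arrays alone called 0 probe sets, with 1932 at an unadjusted p under 0.05. The shared estimate includes the tumours between, which the ranking itself placed close together in Ifit1. The mean log2 signal of the interferon list genes had an SD of 0.114 there, against 0.319 in the high and 0.253 in the low group. The p-values of genes that follow Ifit1 may therefore be too small. With dose as a covariate 8 probe sets were called, 5 of them higher, and 4 genes (0.0297%), 2 of them higher. Leaving out 1 tumour moved the count by over 1.5 times for 40 mg/kg tumour 3 (56 called), 40 mg/kg tumour 5 (52), 40 mg/kg tumour 6 (11) and 40 mg/kg tumour 8 (12), and gave 14 to 27 for the other 6.

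Over the interferon lists, which leave out the MHC class II genes, 108 of 158 listed genes were measured. That is, their probe set exceeded the 40th percentile of its array on at least 3 arrays. Of the 108 genes 7 were called higher and 0 lower, 91 had a higher mean in the high group and 60 had an unadjusted p under 0.05. Their median log2 difference was 0.75, against 0.01 over all genes tested. Of all 13453 genes tested, 6891 had a higher mean in the high group, 6562 a lower one, and 1135 an unadjusted p under 0.05. In 22 of the 108 genes all 5 high tumours exceeded all 5 low tumours, as they did in 88 of all 13453 genes (0.654%). The mean log2 signal of the 108 genes ran from 6.35 to 7.12 in the high tumours, 6.12 to 6.43 in those between, 5.64 to 6.33 in the low tumours and 7.11 to 7.44 in vehicle. The high and low ranges nearly meet without overlapping, the tumours between lie close to the boundary, and 1 high tumour, 40 mg/kg tumour 6, reaches the lowest vehicle tumour.

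Ddx60, a helicase that assists the cytosolic RNA sensors, showed the clearest separation of the sensors. Its signal was 239.8, 260.3, 82.2, 113.8 and 71.7 in the high tumours, in the order of falling Ifit1, and 25.1, 26.0, 32.2, 43.5 and 14.1 in the low tumours. The lowest high tumour stood above the highest low tumour, the 6 tumours between lay at 41.1 to 72.6, and the vehicle tumours lay above all of these at 264.4, 458.9 and 353.5. The difference was 4.67-fold (log2 2.22, SE 0.33, adjusted p = 0.00754), and its second probe set was also called (log2 1.93, adjusted p = 0.00754). All 10 measured sensors had a higher mean in the high group (median log2 0.97), and Ddx60 alone passed the test at the probe set that represents each gene. Ifih1, the MDA5 sensor of long double-stranded RNA, differed by 1.81 (SE 0.37, adjusted p = 0.061), with 1 high tumour at 154.8 inside the low range of 38.6 to 210.3. Ddx58, the RIG-I sensor, differed by 0.71 (adjusted p = 0.176) without overlap, and the double-stranded RNA receptor Tlr3 by 1.22 (adjusted p = 0.382) without overlap. Zbp1, a sensor of Z-form nucleic acid, was called at its dimmer probe set only (24.2 against 2.88 in mean signal, the latter near the pseudocount; log2 2.30, adjusted p = 0.0169). The brighter one that represents it gave 1.15 (adjusted p = 0.714), so its probe sets disagree.

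Among 39 measured effectors 3 were called higher and 0 lower, 36 had a higher mean in the high group, and the median log2 difference was 0.90. Herc6, the ligase that attaches the ubiquitin-like protein ISG15 in mice, had the smallest p of all genes tested. Its signal was 446.9, 330.5, 192.8, 183.3 and 180.2 in the high tumours and 84.2, 92.2, 76.8, 63.8 and 59.2 in the low tumours. The groups did not overlap, the tumours between filled the gap at 94.4 to 140.5, and the vehicle tumours, at 341.7, 632.3 and 454.4, overlapped the top of the high group. The difference was 3.27-fold (log2 1.71, SE 0.23, adjusted p = 0.00754), and 2 of its 4 probe sets were called. With dose as a covariate it was 1.68 (adjusted p = 0.0289), the only interferon list gene still called there at the probe set that represents it; the second probe set of Ddx60 was also called (2.02, adjusted p = 0.0289).

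The ubiquitin ligase Dtx3l and its partner Parp9, an ADP-ribosyltransferase family member, lie beside Parp14 in the genome. Dtx3l read 359.0, 471.5, 261.0, 335.5 and 278.6 in the high tumours and 144.0, 73.3, 204.4, 126.7 and 173.3 in the low tumours, a difference of log2 1.27 (SE 0.22, adjusted p = 0.0265) with no overlap. Parp9 differed by 1.75 (SE 0.34, adjusted p = 0.0538) and Parp14 by 1.51 (SE 0.29, adjusted p = 0.0538), neither past the threshold. Parp12, a zinc finger ADP-ribosyltransferase of stress granules, was 544 ± 186 (SD, n = 5) against 217 ± 45.8 (SD, n = 5), and its lowest high tumour at 288.8 stood just above the highest low tumour at 270.6. It was called at log2 1.26 (SE 0.23, adjusted p = 0.0479) and kept its call in 2 of the 10 fits that left out 1 tumour.

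Several large effector differences did not pass the test. Rsad2, the antiviral enzyme viperin, averaged 1125 in the high and 234 in the low tumours, a log2 difference of 2.04 (SE 0.44, adjusted p = 0.0941). The exonuclease Isg20 differed by 1.94 (adjusted p = 0.061), the oligoadenylate synthetase-like gene Oasl2 by 1.86 (adjusted p = 0.0538) and its relative Oasl1 by 1.56 (adjusted p = 0.061). Oasl2 read 536.8, 380.2, 197.5, 122.7 and 115.4 in the high tumours and at most 94.7 in the low tumours. The high group thus spans the distance from the low group to the vehicle tumours, which read 520.1, 765.5 and 643.8, and this spread widens its error. The RNA editing enzyme Adar, at means of 298.6 and 302.6, and the ubiquitin ligase Trim25, at a log2 difference of 0.06, differed little in mean.

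**Figure D2:**
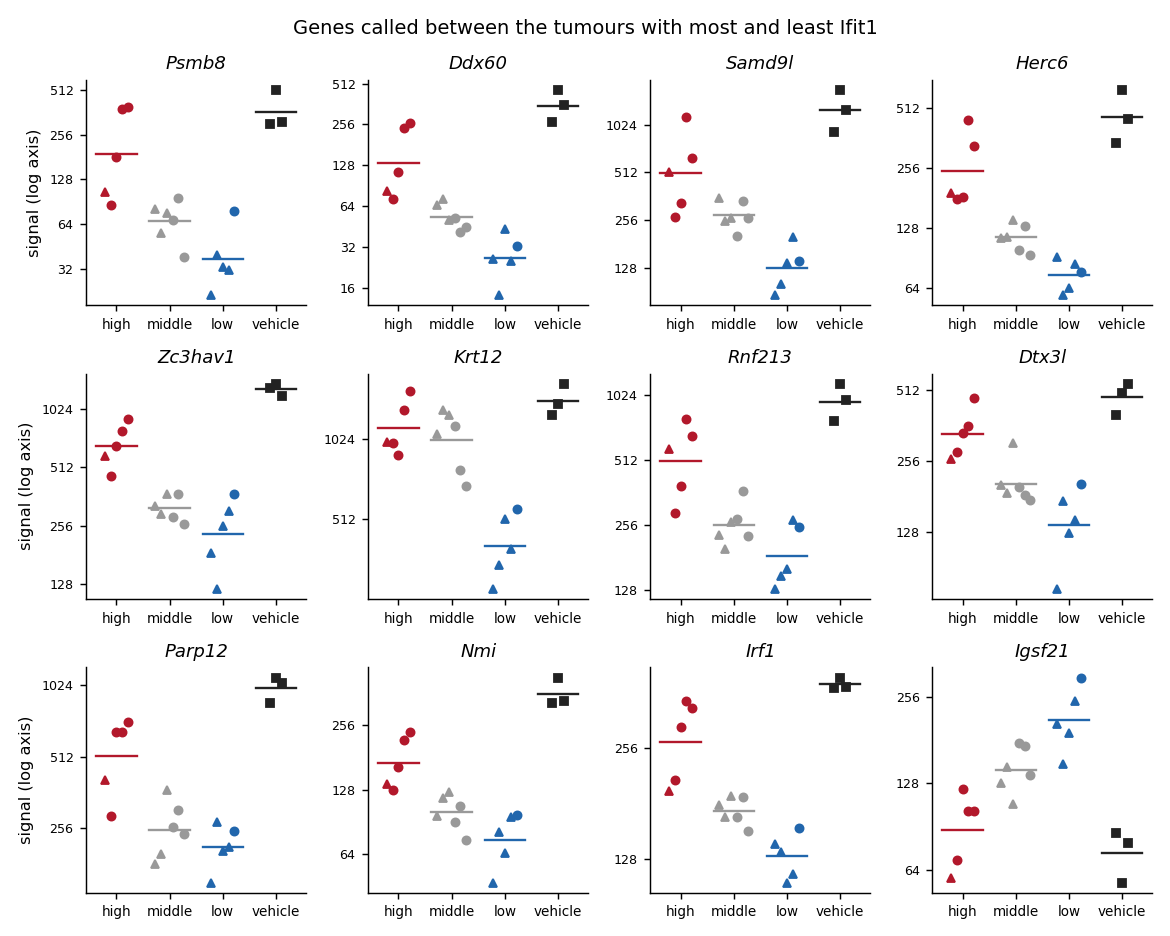
Signal (MAS5 units, log axis) of 12 called genes in each tumour of the high, middle, low and vehicle groups, with circles for 40 mg/kg, triangles for 160 mg/kg, squares for vehicle and bars for the mean taken on the log2 scale. In 11 genes all high tumours lie above all low tumours, and in Igsf21 all lie below.

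Of 21 measured signalling genes 1 was called higher and 0 lower, with a median log2 difference of 0.03. The receptor chain Ifnar1 averaged 227 ± 61.4 in the high and 249 ± 23.04 in the low tumours (SD, n = 5 each), and the kinase Jak1 averaged 384.6 ± 24.04 and 379.1 ± 30.55. Stat2 differed by 0.08, Irf3 by 0.12 and Tyk2 by -0.12 on the log2 scale. Irf1, an interferon-induced transcription factor, was called: it read 343.2, 328.0, 195.0, 291.4 and 209.2 in the high tumours and 116.7, 140.7, 155.4, 110.4 and 133.5 in the low tumours. The groups did not overlap, the tumours between lay at 152.5 to 189.5, and the vehicle tumours at 371.7, 397.2 and 373.5 stood above every treated tumour. The difference was 2.02-fold (log2 1.02, SE 0.15, adjusted p = 0.00754), and it was called in 10 of the 10 fits without 1 tumour. Of members that interferon is known to induce, 3 had differences that did not pass the test: 1.85 for Usp18, the protease that removes ISG15 (adjusted p = 0.104), 1.01 for Irf7 (adjusted p = 0.137) and 0.67 for Irf9 (adjusted p = 0.217). Of 15 interferon ligand genes 8 had a probe set of their own and 0 passed the filter on low values, so the ligands were not measured here.

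Genes of MHC class I peptide supply were higher in mean in all 15 measured members, with 1 called and a median log2 difference of 0.81. Psmb8, a catalytic subunit of the immunoproteasome, had the largest difference of the called genes, at 1 probe set a gene, apart from Gm20559: 379.4, 394.4, 105.7, 180.1 and 85.9 in the high tumours against 31.5, 21.3, 78.3, 33.0 and 39.6 in the low tumours. A pair of high tumours lay within the vehicle range of 300.4 to 512.4, and the lowest high tumour stood little above the single 40 mg/kg tumour of the low group. The difference was 4.86-fold (log2 2.28, SE 0.39, adjusted p = 0.023) and was called in 4 of 10 fits without 1 tumour. The other inducible subunits Psmb9 and Psmb10 differed by 1.71 (adjusted p = 0.139) and 0.98 (adjusted p = 0.0538), and the peptide transporter gene Tap1, next to Psmb8 and Psmb9 in the genome, by 1.55 (adjusted p = 0.15). The MHC class I light chain B2m averaged 2724 ± 934 against 1562 ± 364 (SD, n = 5 each; log2 0.77, adjusted p = 0.226). By contrast with the inducible subunits, 0 of 18 constitutive proteasome genes were called and their median difference was -0.06. MHC class II genes, which mark professional antigen-presenting cells, had 0 of 7 called and a median of -0.02.

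The interferon-inducible GTPases, which coat the membranes of intracellular pathogens, showed the highest median of the interferon lists, 1.42 over 8 measured genes. All 8 had a higher mean in the high group and an unadjusted p under 0.05, but 0 were called. Gbp7 read 696.6, 508.5, 309.6, 309.3 and 245.8 against 191.1, 195.5, 170.5, 132.9 and 84.2 (log2 1.36, SE 0.27, adjusted p = 0.061). It did not overlap between the groups, and all of its high tumours stayed below the vehicle tumours at 828.3, 1265 and 1076. Gbp6 differed by 2.17 (adjusted p = 0.132) and Irgm1 by 1.29 (adjusted p = 0.061), both without overlap, and Gbp2 by 1.67 (adjusted p = 0.0643) with 1 high tumour inside the low range.

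Samd9l, an interferon-induced gene that restrains translation and cell growth, was called, and the Schlafen genes listed with it were not. It read 1139.5, 628.2, 511.7, 330.1 and 268.2 in the high tumours and 199.2, 86.3, 141.3, 137.0 and 101.5 in the low tumours. The groups did not overlap, and 40 mg/kg tumour 6 lay within the vehicle range of 922.7 to 1690.4. The difference was 3.89-fold (log2 1.96, SE 0.30, adjusted p = 0.00962). The uncharacterised gene Gm20559, next to Samd9l in the genome, was called at 2 probe sets (log2 2.47 and 2.10); it falls outside the naming rule and is named after its values were seen. The Schlafen genes, growth-regulating relatives of RNA-cleaving enzymes, had differences from -0.47 for Slfn2 to 0.74 for Slfn3 and 0 of 6 were called. Slfn8 read 67.6, 67.0, 17.6, 48.1 and 25.9 in the high tumours and 22.5 to 36.1 in the low tumours, so the groups overlapped, and both lay below the vehicle tumours at 100.3, 164.5 and 194.6. Of 8 interferon-linked chemokines 0 were called; the T cell attractant Cxcl10 differed by 0.97 (adjusted p = 0.36) and the monocyte attractant Ccl2 by -0.26 (adjusted p = 0.892).

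**Figure D3:**
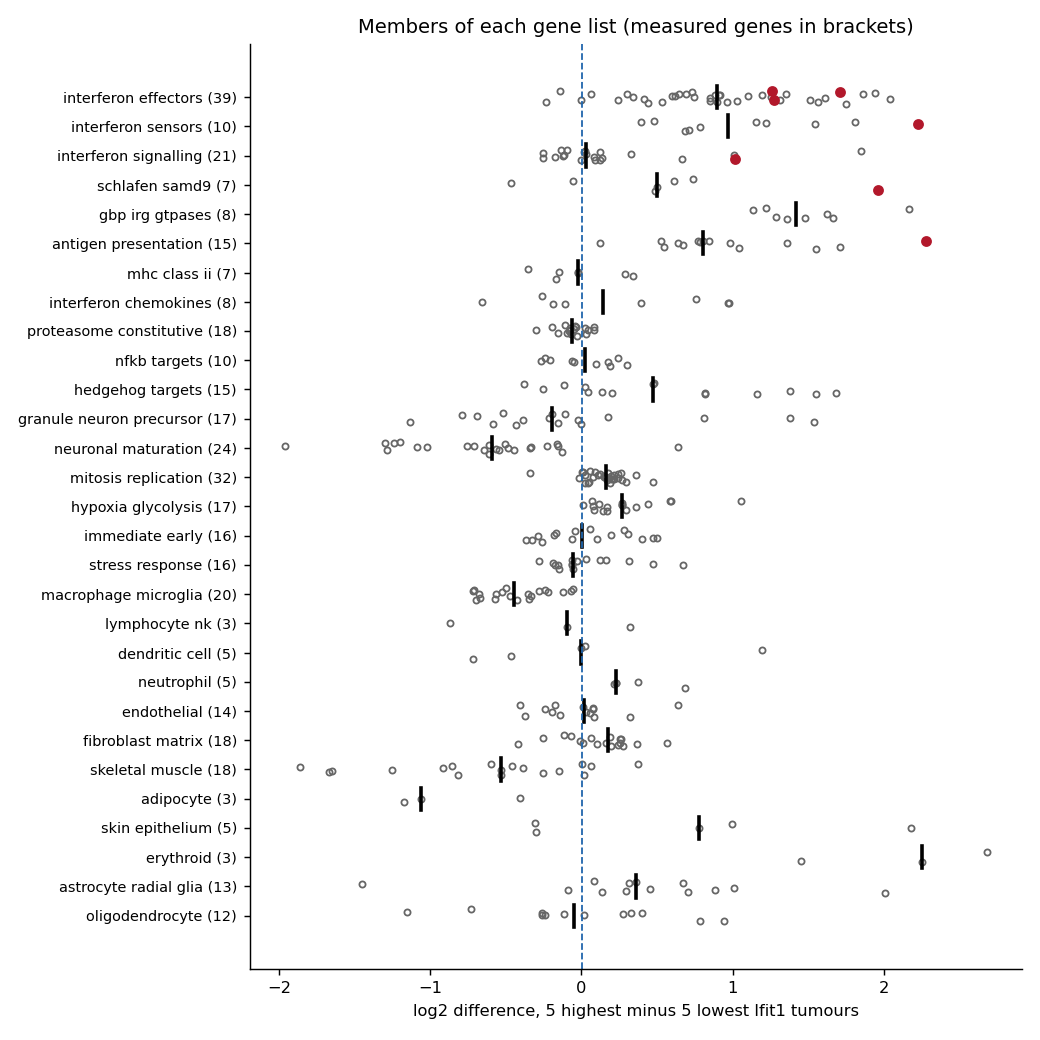
Log2 difference, high minus low, of each measured member of 29 gene lists, with red points for called genes, open points for genes not called, black ticks for list medians and a dashed line at the median of all genes (0.01). Called members occur in 5 interferon lists, and the GTPases have a median of 1.42 without a call.

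Several called genes stood outside the lists. Zc3hav1, the antiviral protein ZAP that binds CpG-rich RNA, read 786.1, 912.5, 582.8, 662.1 and 461.1 in the high tumours and 305.3, 186.3, 372.8, 256.5 and 121.3 in the low tumours, with vehicle at 1307.6, 1380.1 and 1200.9. High, low and vehicle values formed 3 separate ranges, and the difference was 2.84-fold (log2 1.51, SE 0.23, adjusted p = 0.00962). Its dimmer probe sets gave 0.86 and 1.19 without a call. Rnf213, a giant ATPase and ubiquitin ligase, averaged 541 ± 203 (SD, n = 5) against 191 ± 64.1 (SD, n = 5) (log2 1.46, SE 0.25, adjusted p = 0.0236), while its second probe set, with a mean of 37.4 over all arrays, gave -0.08. Nmi, a protein induced by interferons, averaged 177 ± 49.0 against 77.3 ± 21.3 (SD, n = 5 each; log2 1.17, SE 0.21, adjusted p = 0.0265). Ripor2 was called at 1 of 4 probe sets (log2 1.58, adjusted p = 0.0169), and the brightest one gave 1.78 (adjusted p = 0.104). Ripor2, like Zbp1, is named after its values were seen.

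Krt12, a keratin best known from corneal epithelium, is on none of the interferon lists and was called at both probe sets. It read 1306.9, 1546.5, 997.8, 886.4 and 988.6 in the high tumours and 393.8, 280.3, 557.4, 512.5 and 344.3 in the low tumours. The 6 tumours between, at 681.1 to 1311.2, sat with the high group rather than halfway, and the vehicle tumours lay at 1259.3, 1383.1 and 1644.9. The difference was 2.76-fold (log2 1.46, SE 0.21, adjusted p = 0.00754). It was 1.49 with dose as a covariate (adjusted p = 0.0289), and with Ifit1 as a continuous measure over 16 tumours it was not called (adjusted p = 0.0772). Krt10, the neighbouring gene on chromosome 11 and a keratin of upper epidermis, read 5282, 4414, 2902, 4095 and 3680 against 1027, 161, 2212, 1603 and 878 (log2 2.18, SE 0.44, adjusted p = 0.061). Of 8 skin epithelium markers 5 were measured, 3 were higher in mean, and their summed signal, mostly Krt10, ran from 3109 to 5389 in the high and from 346 to 2286 in the low tumours. The basal keratin Krt5 was dim in both groups, at 22.5 ± 4.98 and 27.8 ± 2.92 (SD, n = 5 each), as was the cornified envelope gene Lor, at 39.1 ± 11.5 and 54.6 ± 32.9. The part of skin in the Krt12 result was not tested.

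Igsf21, a synaptic adhesion molecule of the immunoglobulin superfamily, was the only gene called lower with high Ifit1. It read 102.7, 102.8, 60, 122.5 and 69.0 in the high tumours and 246.9, 206.0, 298.8, 191.6 and 149.0 in the low tumours, with the tumours between at 108.5 to 176.9 and vehicle at 57.8 to 85.9. The high tumours lay at or near the vehicle level and the low tumours above it, with log2 -1.24 (SE 0.21, adjusted p = 0.02) and no overlap. With dose as a covariate it was -1.54 (adjusted p = 0.00665), and with Ifit1 as a continuous measure over 16 tumours it was -0.79 and not called (adjusted p = 0.437). The next genes by p in this direction were not called: the neuronal membrane protein Plppr1 (-1.0, adjusted p = 0.0538), the transporter-like Mfsd4b4 (-1.83, adjusted p = 0.054), the sodium channel Scn8a (-0.81, adjusted p = 0.074), the synaptotagmin Syt11 (-0.53, adjusted p = 0.0794) and the mitochondrial fusion gene Miga1 (-0.49, adjusted p = 0.0825). Plppr1, Mfsd4b4, Scn8a and Syt11 did not overlap between the groups, as did 91 of 13453 genes in this direction (0.676%).

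Neuronal genes tended to be lower where Ifit1 was high, without a single call. Of 24 measured neuronal maturation genes 0 were called, 23 had a lower mean in the high group, 10 had an unadjusted p under 0.05, and the median log2 difference was -0.59. In 4 of them, Stmn3, Dcx, Elavl3 and Syn1, all high tumours lay below all low tumours, as in 91 of 13453 genes tested (0.676%). The median correlation of the 24 genes with Ifit1 was -0.27 over the 16 treated tumours and 0.29 within the 6 between. Dcx, the microtubule protein of migrating neurons, read 1068, 759, 897, 987 and 1039 in the high tumours and 1148, 1086, 1787, 1416 and 1287 in the low tumours, with vehicle at 442.2 to 603.7 (log2 -0.49, SE 0.14, adjusted p = 0.289). Stmn2, a tubulin regulator of growing axons, averaged 529 ± 303 against 1178 ± 437 (SD, n = 5 each; log2 -1.29, adjusted p = 0.611), with overlap. The granule lineage list had 0 of 17 called and a median of -0.19; Neurod1 differed by -0.79 (adjusted p = 0.211) the progenitor factor Sox2 by 1.54 (adjusted p = 0.455), the axonal adhesion gene Cntn2 by -0.58 (adjusted p = 0.771) and the radial glia lipid carrier Fabp7 by 0.70 (adjusted p = 0.873).

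Hedgehog pathway genes had 0 of 15 called and a median log2 difference of 0.47, with 12 of 15 higher in mean. Gli1, the standard target of the pathway, read 215, 2286, 2638, 106 and 165 in the high tumours and 167, 175, 114, 113 and 170 in the low tumours, with vehicle at 320.3 to 338.1. Only 40 mg/kg tumour 8 and 160 mg/kg tumour 1 exceeded vehicle, so the mean difference of 1.68 (SE 0.69, adjusted p = 0.597) rests on those 2 tumours of the high group. The inhibitory targets Hhip and Ptch1 differed by 1.55 (adjusted p = 0.284) and 0.82 (adjusted p = 0.349), the coreceptor Gas1 by 0.82 (adjusted p = 0.268), the activator Gli2 by -0.38 (adjusted p = 0.933), and Smo, the drug target, by 0.02. Of 32 mitosis and replication genes 0 were called (median 0.16, 30 higher in mean), and of 17 hypoxia and glycolysis genes 0 were called (median 0.27, 17 higher in mean).

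Markers of host cells were compared because immune cells carry strong interferon responses. In bulk tumour RNA, fewer cells of a type and less RNA per cell cannot be told apart. All 20 measured macrophage and microglia markers had a lower mean in the high group, with 0 called and a median of -0.45, and their summed signal ran from 1792 to 5272 in the high and from 1667 to 13478 in the low tumours. Their highest mean log2 signal, 8.64, was in 160 mg/kg tumour 6, which had the lowest Ifit1. C1qa, a complement gene of macrophages, read 252.5, 129.7, 99.7, 88.5 and 276.3 against 154.6, 106.9, 204.1, 304.7 and 939.3 (log2 -0.71, adjusted p = 0.814). Of 18 lymphocyte and natural killer markers 3 passed the filter, with a median of -0.10 and a summed signal of 96.7 to 152 in the high and 100.8 to 124.3 in the low tumours. Of 11 dendritic cell markers 5 were measured (median 0.00), of 10 neutrophil markers 5 (median 0.23), of 15 endothelial markers 14 (median 0.02), of 19 fibroblast markers 18 (median 0.18) and of 18 skeletal muscle markers 18 (median -0.53), with 0 called in each. The astrocyte list (13 measured, median 0.36), the oligodendrocyte list (12, median -0.05), the adipocyte list (3, median -1.06), NF-kB targets (10, median 0.02), immediate early genes (16, median 0.01) and stress genes (16, median -0.06) also had 0 called. The 3 measured red cell genes had a median of 2.25 with 0 called; the heme enzyme Alas2 read 1375 in 40 mg/kg tumour 8 and 22.3 to 250.4 in the other high tumours, against 1.9 to 53.7 in the low tumours.

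**Figure D4:**
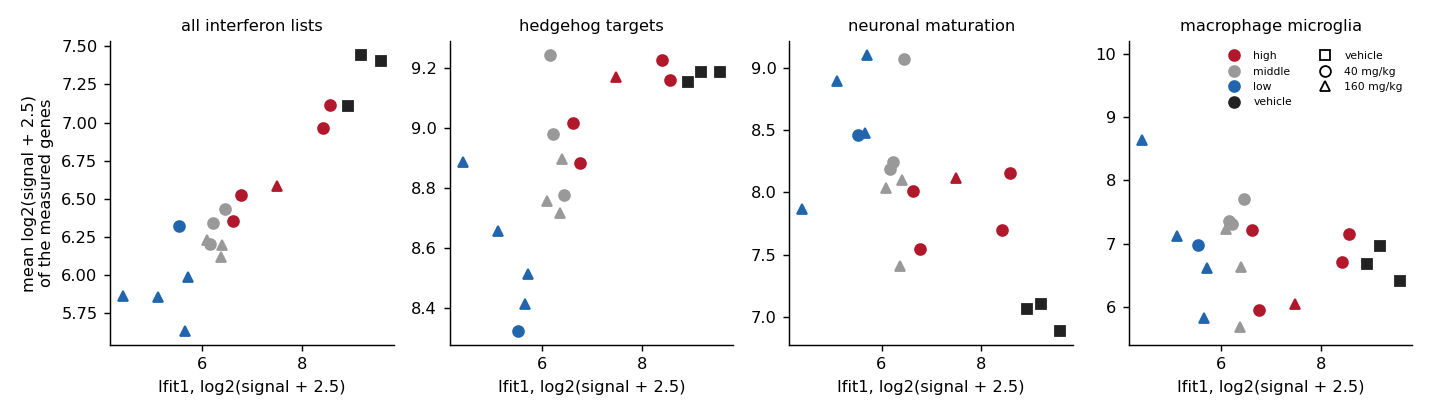
Mean log2(signal + 2.5) of the measured genes of 4 lists in each tumour against Ifit1 on the same scale, with colour for the group and shape for the dose. The 108 interferon genes run from 5.64 to 7.12 in the treated tumours plotted. Their group mean is 5.93 in the low, 6.26 in the middle and 6.71 in the high tumours. The median correlation of these genes with Ifit1 is 0.59 over the 16 treated tumours and 0.09 within the 6 between. Macrophage markers run from 5.94 to 7.21 in the high tumours and from 5.83 to 8.64 in the low tumours, on both sides of the high range.

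The median difference of the interferon genes had the same sign within each dose, and most but not all genes did. At 40 mg/kg, the 4 high tumours against the single low tumour gave a median log2 difference of 0.45 over the 108 genes; 76 had a higher mean, and 45 genes had all high tumours above the low one (41.7%, against 27.1% of all genes tested). At 160 mg/kg, the single high tumour against the 4 low tumours gave 0.75; 88 genes were higher, and 66 genes had it above all of them (61.1%, against 16.3% of all genes). The 11 named genes called higher lay above in all of these comparisons. This had to be so, because none of them overlapped between the full groups, and it adds no evidence about dose. The shares above are bound in the same way. They include the 22 interferon list genes, and 88 of all genes, in which all high tumours exceeded all low tumours in the full groups. The shares are therefore not separate evidence within a dose. With 1 tumour on a side there is no test within a dose. With dose as a covariate the calls of 9 of these 11 were lost, with differences close to those given: Irf1 had 0.91, Ddx60 2.17 and Samd9l 1.97 (adjusted p = 0.052 each), Zc3hav1 had 1.38 (adjusted p = 0.0688), and Nmi, Rnf213, Psmb8, Dtx3l and Parp12 had adjusted p from 0.113 to 0.176. With an Ifit1 slope fitted for each dose, 0 probe sets were called for a difference of slope and 1613 had an unadjusted p under 0.05.

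The vehicle tumours give the untreated level, measured the same way. In 27 of the 108 interferon genes all high tumours lay below all vehicle tumours, and in 70 all low tumours did. Over all genes the shares were 7.97% and 9.51%. The tumours between had a group mean between those of the high and low groups in 76 of the 108 genes and in 5469 of 13453 genes tested. Of the called genes, Ddx60, Irf1, Zc3hav1, Nmi and Parp12 had every high tumour below every vehicle tumour, whereas Psmb8, Herc6, Samd9l, Rnf213 and Dtx3l overlapped vehicle in at least 1 high tumour.

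The genes whose signal followed Ifit1 most closely over the 16 treated tumours were, by Pearson r of log2 signal, Herc6 (0.97), Oasl1 (0.95), Cmpk2 (0.94), Gbp7 (0.94), Rsad2 (0.93), Samd9l (0.93), Gbp2 (0.93), Oasl2 (0.93), Ddx60 (0.93) and Rnf213 (0.92). These values describe the 16 arrays and carry no test. Without the 2 tumours of highest Ifit1 they ran from 0.82 for Oasl2 to 0.93 for Herc6 over 14 tumours. Within the 6 tumours between the groups, where Ifit1 spans 65.8 to 84.9, they ran from -0.37 for Ddx60 to 0.71 for Rnf213, so in that narrow range the order of the tumours by Ifit1 was not shared by all 10 genes. With Ifit1 as a continuous covariate over 16 tumours, 44 genes were called (0.327%), 42 of them rising with Ifit1, and 33 of the 108 interferon list genes were among the 44.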

How the data were processed

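The authors deposited signal intensity values of MAS5, the algorithm in the submitters' processing notes, which summarises probe sets and scales arrays one by one. Values are linear, and the mean trimmed by 2% on both sides came to 150 on all arrays, so a shift shared by all genes cannot be seen. The scaling target, scan dates and detection calls are not stated, and no batch was tested. The 45101 probe sets carry the names of the full Mouse 430 2.0 platform table, whereas the series text names the 430A 2.0 array. After 64 controls, 34945 probe sets had 1 symbol, 932 had several and 9160 had none; only those with 1 symbol name a gene, and 34741 matched the GRCm38.p6 gene table.

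Treated arrays were ranked by the single Ifit1 probe set. Values were tested as log2(signal + 2.5), the 10th percentile of all values, which understates changes of dim genes. A probe set was kept where 3 or more arrays read it above their own 40th percentile, and the Ifit1 probe set was left out, leaving 31142 probe sets and 13453 genes. The test was limma (version 3.58.1, R 4.3.3; lmFit, and eBayes with a variance trend) on 4 groups (5 high, 6 between, 5 low, 3 vehicle) with 15 residual degrees of freedom. P-values are two-sided with Benjamini-Hochberg adjustment over all probe sets tested, and called means an adjusted p under 0.05. Of several kept probe sets, the brightest on average represents the gene. Exact tests used Python 3.11.15 with scipy 1.17.1. On simulated arrays of 31142 probe sets, the high against low test recovered 55% of changes of 1 and 93% of changes of 2 on the log2 scale, with 6.92% of calls false. The simulated noise was independent between probe sets and the groups were not cut by a simulated gene. These rates therefore need not hold for the real comparison. The number of arrays limits the precision.

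The ranking gene, the lists and the tests were chosen with earlier results of these data known. Named genes were all genes called in a direction without clone-like symbols (at most 12), topped up to 6 by smallest p where fewer were called, up to 6 members with the smallest p per interferon list and 3 per other list, and Gli1, Gli2, Stmn2, Cntn2 and Fabp7. List members named beyond this (among them Isg20, B2m, Adar, Trim25, Ifnar1, Jak1, Syn1, Krt5, Lor, Smo and Zic1) were chosen after their values were seen. Lists are described by counts and medians with no test of the list. The alternatives were other normalizations, pseudocounts, filters and variance models, array weights, covariates, a replicate block, a continuous Ifit1 measure and leaving out each array.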

Additional observations from a re-analysis of the deposited data

How the results depend on the processing

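The reported fit called 20 probe sets, 19 of them higher, and 7 interferon list genes. Quantile normalization gave 31 probe sets and 11 list genes, a filter at the 60th percentile 11 list genes, no variance trend 13 probe sets (12 higher, 4 list genes) and array weights 34 (31 higher, 12 list genes). The 10 compared arrays alone gave 0, 0 and 0, where the fit has fewer samples for the spread and leaves out the tumours between and the vehicle tumours. Dose as a covariate gave 8 (5 higher, 1 list gene), and Ifit1 as a continuous covariate 66 (62 higher, 33 list genes). The cause of the other changes was not tested. Leaving out 1 tumour gave 11 to 56 probe sets, 10 to 50 higher, 4 to 22 list genes and a list median of 0.65 to 0.88. Without 160 mg/kg tumour 7 it was 4 list genes. Subtracted array medians, pseudocounts of 1 and 16, no filter and the array median as a covariate kept each count within 1.5 times. The median of the interferon lists stayed between 0.59 and 0.94 under every alternative run, and 0 named genes reversed a called direction. Of the 12 named calls, Herc6 held in 22 of 23 alternatives and Parp12 in 8.

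The replicate numbers of the labels recur in both treated groups, and only the lowest of them among the 3 vehicle tumours. Nothing says what the numbers mark. Within-group deviations of arrays that share a number correlated from -0.13 to 0.09 over 14 pairs, and 0 of 19 arrays correlated best with an array of its own number, so the numbers were not used to pair samples. With the number as a replicate block 24 probe sets were called, all 24 higher, with 9 list genes. Signal near the pseudocount limits the dim genes, among them the interferon ligands and most lymphocyte markers.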
